A study of Mus musculus with 26 samples.

Results

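Transcripts of 8 adipokines were followed through obesity and weight loss: Lep (leptin), Adipoq (adiponectin), Retn (resistin), Rbp4 (retinol binding protein 4), Nampt (visfatin), Apln (apelin), Rarres2 (chemerin) and Cfd (adipsin, complement factor D). They were matched by symbol, as a list of known adipokines drawn up with earlier results of these data known, in the gene tables of both cell fractions. They are 8 of the 39017 gene identifiers in those tables, and all 8 had enough counts to be tested in every comparison below. Adipokines are proteins that fat tissue secretes into the blood or to its neighbours. Leptin reports fat stores to the brain, adiponectin promotes insulin sensitivity, and resistin, retinol binding protein and chemerin have each been tied to insulin resistance or inflammation. Adipsin is the protease that starts the amplification loop of the alternative complement pathway, and Nampt is also an intracellular enzyme that recycles nicotinamide into NAD in every cell type, so its transcript is not restricted to fat cells.

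The mice were male wild type C57BL/6J, group housed, and 9 to 10 weeks old when the diets began. Lean mice received a 10% fat diet (LFD) for 12 weeks, obese mice a 60% fat diet (HFD) for 12 weeks, and formerly obese mice (SW) the HFD for 9 weeks and then the LFD for 3 weeks. After collagenase digestion of the epididymal fat pads, adipocytes were taken from the supernatant and stromal vascular cells (SVC), with red cells lysed, from the pellet. No mouse carried a transgene. Usable columns were 3 adipocyte libraries per diet group and, for SVC, 1 LFD, 2 HFD and 3 SW libraries.

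Values per library are counts per 1000000 counts of the library (CPM), scaled with TMM factors within each fraction. The libraries of a group are numbered from 1 in the order of the numbers in their column names, and values are listed in that order. Total counts ran from 5781902 to 23725647 per library. Nothing in the labels ties these libraries to separate animals, so p-values measure the spread between these libraries. The adipocyte fraction held its defining transcripts, with a summed level of 10 adipocyte markers between 34766 and 44637 CPM in LFD, 17969 and 25653 in HFD and 29757 and 32348 in SW libraries. It was not free of other cells: the sum of 11 macrophage markers was 684 to 1137 CPM in LFD, 8191 to 9500 in HFD and 5972 to 8830 in SW adipocytes. In SVC the same sum was 7632 to 19479 CPM, while the adipocyte markers summed to 1067 to 4977. Among the SVC libraries, the LFD library and both HFD libraries stood apart. In the LFD library the mesothelial markers summed to 911 CPM, against 26.4 to 169 in the others. Its fibroblast and progenitor markers summed to 14311 CPM, against 6243 to 10244 in the others. HFD library 1 had 0.287% hemoglobin counts against 2.76 to 5.15% in the others, and the highest sum of adipocyte markers, 4977 CPM. HFD library 2 had 33.5% mitochondrial counts against 4.36 to 9.54% in the others. HFD library 2 also carried Alb at 1161 CPM, against 7.44 to 39.6 in the other SVC libraries. Alb and Apoa1, named below, encode plasma proteins made mainly by the liver, and they were picked after their values had been seen.

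Most adipokine transcripts were lower in adipocytes of obese than of lean mice, and 5 of the 6 that fell rose again after the diet switch. Between HFD and LFD adipocytes 6 of the 8 fell, none rose and 2, Lep and Nampt, did not pass the threshold (edgeR's quasi-likelihood test, Benjamini-Hochberg adjusted p under 0.05). Of all 14461 genes tested, 25.0% fell and 26.5% rose in this comparison, 51.5% in all. The median log2 fold change of the 8 was -1.49, beside -0.03 for all genes. The share of a library's counts that the 8 genes took was 1.03 to 2.03% in LFD, 0.299 to 0.541% in HFD and 0.599 to 0.783% in SW adipocytes, and the diet groups did not overlap. In bulk RNA, fewer adipocytes and less transcript per adipocyte cannot be told apart.

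**Figure D1:**
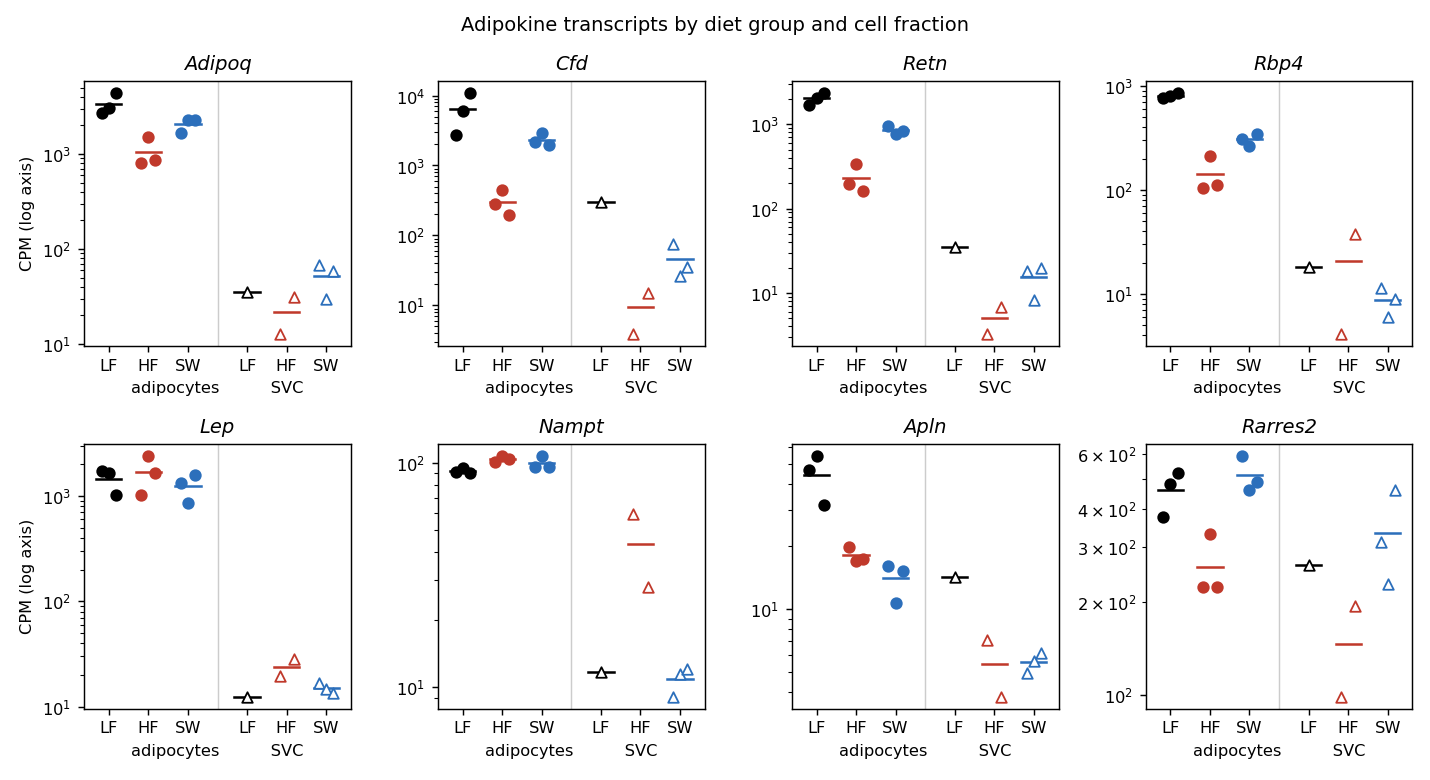
CPM of each adipokine (log axis) in every library, by diet group (LF, lean; HF, obese; SW, formerly obese), with filled circles for adipocytes, open triangles for SVC and bars for group means. Cfd, Retn, Rbp4 and Adipoq are lowest in HF adipocytes and have SW means between those of HF and LF, Lep and Nampt have no diet difference past the threshold in adipocytes, and Rarres2 has the closest levels in the 2 fractions.

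Cfd (chromosome 10, 79890853 to 79892655, plus strand, GRCm38) encodes adipsin. It was measured at 2716, 5995 and 10846 CPM in LFD, 276.7, 439.4 and 198.7 in HFD and 2154, 2916 and 1975 in SW adipocytes. Every LFD and SW library lay above every HFD library, while LFD library 1 lay within the SW range. The fall from LFD to HFD was -4.42 ± 0.52 on the log2 scale (SE, n = 3 per group; adjusted p = 0.000106), a 21.4-fold difference, and only 0.443% of the genes tested fell further. From HFD to SW it rose by 2.94 ± 0.48 (adjusted p = 0.00518), and the SW mean stood at 36.0% of the LFD level. The remaining gap between SW and LFD, -1.47 ± 0.46, did not pass (adjusted p = 0.0526), and it passed with DESeq2 (adjusted p = 0.00387), with upper-quartile factors (0.0449) and without LFD library 1 (0.0125).

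Retn (chromosome 8, 3655770 to 3660110, plus strand) encodes resistin, which in mice is a product of fat cells. Its levels were 1703, 2039 and 2348 CPM in LFD, 195.2, 338.3 and 163.4 in HFD and 962.8, 761.6 and 833.1 in SW adipocytes. The diet groups did not overlap in any pair. It fell by 3.13 ± 0.29 on the log2 scale from LFD to HFD (adjusted p = 2.66e-05), rose by 1.88 ± 0.27 from HFD to SW (adjusted p = 0.00395) and was still lower in SW than in LFD mice, by -1.25 ± 0.27 (adjusted p = 0.00996). The SW mean was 41.99% of the LFD mean, and the HFD mean 11.4%.

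Rbp4 (chromosome 19, 38116629 to 38125281, minus strand) encodes the carrier of retinol in blood. It stood at 758.5, 796.0 and 854.9 CPM in LFD, 104.7, 213.0 and 112.2 in HFD and 307.5, 266.8 and 344.1 in SW adipocytes, again without overlap between any pair of groups. The fall to HFD was -2.49 ± 0.27 (adjusted p = 6.16e-05). After the switch it rose by 1.09 ± 0.26 (adjusted p = 0.0134), a call that was lost without HFD library 3 (adjusted p = 0.0604). The gap to LFD remained at -1.39 ± 0.26 (adjusted p = 0.00456), with the SW mean at 38.1% of the LFD mean.

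Adipoq (chromosome 16, 23146536 to 23158028, plus strand) encodes adiponectin. Its levels were 2669, 3071 and 4371 CPM in LFD, 795.0, 1494 and 861.7 in HFD and 1662, 2274 and 2298 in SW adipocytes. The groups did not overlap in any pair. It fell by 1.68 ± 0.29 from LFD to HFD (adjusted p = 0.00114). The rise from HFD to SW, 0.98 ± 0.29 (adjusted p = 0.0291), was lost when HFD library 1 or 3 or SW library 2 or 3 was left out (adjusted p from 0.0686 to 0.115). The difference between SW and LFD was -0.70 ± 0.29 (adjusted p = 0.127; adjusted p = 0.0499 with DESeq2).

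Lep (chromosome 6, 29060220 to 29073877, plus strand) encodes leptin, whose transcript usually tracks fat mass. It was measured at 1713, 1649 and 1023 CPM in LFD, 1027, 2414 and 1656 in HFD and 1330, 854.8 and 1569 in SW adipocytes. All pairs of groups overlapped. The log2 fold change was 0.22 ± 0.34 between HFD and LFD (95% interval -0.45 to 0.88; adjusted p = 0.616) and -0.44 ± 0.34 between SW and HFD (-1.11 to 0.23; adjusted p = 0.338). These intervals include differences close to 2-fold, so Lep cannot be said to be unchanged.

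Apln (X chromosome, 48025146 to 48034853, minus strand) encodes apelin, a peptide that acts through the receptor Aplnr on vessels, heart and muscle. Its levels were 46.5, 54.5 and 31.6 CPM in LFD, 19.9, 17.1 and 17.4 in HFD and 16.2, 10.8 and 15.2 in SW adipocytes. No groups overlapped, and the order was LFD, HFD, SW. It fell by 1.29 ± 0.21 from LFD to HFD (adjusted p = 0.000716). No rise passed after the switch: the difference between SW and HFD was -0.37 ± 0.21 (95% interval -0.79 to 0.05; adjusted p = 0.2), and that between SW and LFD was -1.67 ± 0.22 (adjusted p = 0.000567), with the SW mean at 31.5% of the LFD mean.

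Rarres2 (chromosome 6, 48569696 to 48572789, minus strand) encodes the precursor of chemerin, which attracts immune cells and acts on adipocytes. It stood at 374.9, 481.4 and 519.6 CPM in LFD, 222.9, 330.3 and 222.3 in HFD and 592.3, 460.2 and 488.1 in SW adipocytes. HFD lay below both other groups, which overlapped each other. It fell by 0.83 ± 0.20 from LFD to HFD (adjusted p = 0.00713) and rose by 0.99 ± 0.20 from HFD to SW (adjusted p = 0.00917), and SW differed from LFD by 0.16 ± 0.20 (95% interval -0.23 to 0.56; adjusted p = 0.628). The annotation places it across another gene on the opposite strand, Lrrc61, and whether the counting used strand is not given in the sources used here.

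Nampt (chromosome 12, 32819545 to 32853349, plus strand) had the narrowest spread. Its levels were 90.7, 94.6 and 89.8 CPM in LFD, 100.9, 107.6 and 104.3 in HFD and 95.9, 107.0 and 95.9 in SW adipocytes. The LFD libraries lay below all others, but the difference was small, 0.18 ± 0.10 between HFD and LFD (95% interval -0.01 to 0.38; adjusted p = 0.14) and 0.12 ± 0.10 between SW and LFD (adjusted p = 0.448). A noncoding gene, Gdap10, overlaps Nampt on the same strand, so its reads cannot be separated with certainty.

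Across the comparison of SW with HFD adipocytes, 5 of the 8 genes rose and none fell, where 15.6% of all genes rose and 15.9% fell (31.4% passed). In SW against LFD, 3 of the 8 (Retn, Rbp4 and Apln) were lower and none was higher, where 6.18% of all genes were lower and 10.9% higher (17.1% passed). Groups did not overlap for 7 of the 8 genes in HFD against LFD (62.7% of all genes), 6 in SW against HFD (48.6%) and 5 in SW against LFD (36.7%). These comparisons share libraries and are not independent of each other. In the contrast of LFD with HFD and SW combined, 5 of the 8 were higher in LFD and none was lower (19.4% and 20.7% of all genes, 40.1% in all), namely Cfd, Retn, Rbp4, Apln and Adipoq, by 2.95, 2.19, 1.94, 1.48 and 1.19 on the log2 scale.

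**Figure D2:**
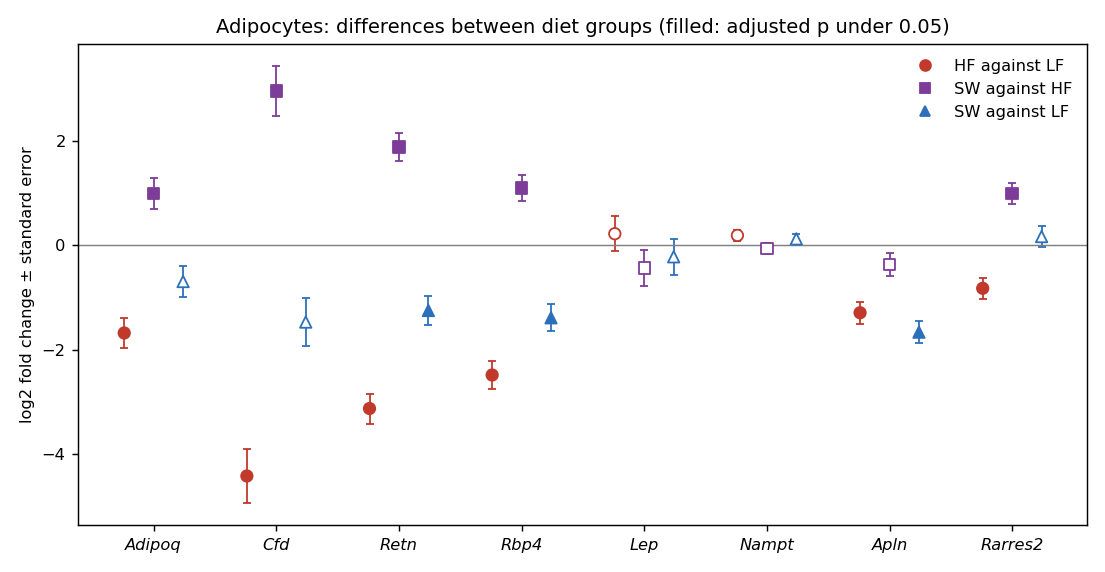
Log2 fold change ± SE of each adipokine between diet groups of adipocytes (n = 3 libraries per group), filled where the adjusted p was under 0.05. Cfd, Retn, Rbp4 and Adipoq fall with HF and rise with SW to means below LF, Rarres2 falls and rises, Apln is lower in both HF and SW than in LF, and no point of Lep or Nampt is filled.

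The adipocyte markers themselves fell with HFD, 6 of 10 past the threshold with none higher and a median log2 fold change of -0.93, while all 11 macrophage markers rose, with a median of 3.08. Markers of some other cells moved with the adipokines too. All 5 erythroid markers tested fell (median -1.84), and 4 rose after the switch (median 1.15), with summed levels of 2133 to 3206 CPM in LFD, 612 to 761 in HFD and 1316 to 2135 in SW adipocytes. Of the mesothelial markers 4 of 6 fell (median -1.79) and of the endothelial markers 3 of 5 (median -0.78), and none of these rose after the switch. Fibroblast and progenitor markers went the other way, with 3 of 7 higher in HFD and none lower (median 0.65). They summed to 1759 to 2676 CPM in LFD, 5178 to 7099 in HFD and 3311 to 3775 in SW adipocytes. The part of all these cells in the adipokine values was not tested. The adipokines were therefore also set against the summed counts of the 10 adipocyte markers in each library, a scaling added after the values had been seen. On that scale Cfd, Retn, Rbp4 and Adipoq still fell from LFD to HFD, with log2 fold changes of -3.47, -2.24, -1.63 and -0.80, each with an adjusted p of at most 0.00805. Rarres2 differed by 0.07 (adjusted p = 0.722) and Apln by -0.38 (adjusted p = 0.223), so that the calls of both were lost and the sign of Rarres2 turned. Lep and Nampt, not past the threshold by CPM, were higher in HFD on this scale, by 1.04 ± 0.30 (adjusted p = 0.0075) and 1.09 ± 0.18 (adjusted p = 0.000193). Per 1000 counts of the markers Lep had 49.3, 38.2 and 22.9 counts in LFD, 57.2, 94.1 and 75.0 in HFD and 41.1, 28.7 and 51.2 in SW adipocytes, and HFD no longer overlapped the other groups. From HFD to SW, Lep and Nampt were lower on this scale, by -0.90 (adjusted p = 0.0273) and -0.58 (adjusted p = 0.0214), Apln was lower by -0.91 (adjusted p = 0.0178), and the rise of Adipoq, 0.52, no longer passed (adjusted p = 0.0840). In SW against LFD Rarres2 was higher on this scale, by 0.57 (adjusted p = 0.0341), and Retn, Rbp4 and Apln were lower, by -0.85, -1.001 and -1.29 (adjusted p of at most 0.0136). Which scale stands for a constant number of adipocytes was not tested.

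The promoters of the 4 genes with the largest falls from LFD to HFD, and of Lep for comparison, were taken from RefSeq for GRCm38.p6. Each run holds the 250 bases before a RefSeq start of the gene, 5′ to 3′ on the gene's own strand, with capitals where a searched motif matched. The Cfd window is chr10:79890603-79890852, the Retn window chr8:3655520-3655769, the Rbp4 windows chr19:38125322-38125571 and chr19:38124812-38125061 (minus strand), the Adipoq window chr16:23146286-23146535 and the Lep window chr6:29059971-29060220.
Cfd: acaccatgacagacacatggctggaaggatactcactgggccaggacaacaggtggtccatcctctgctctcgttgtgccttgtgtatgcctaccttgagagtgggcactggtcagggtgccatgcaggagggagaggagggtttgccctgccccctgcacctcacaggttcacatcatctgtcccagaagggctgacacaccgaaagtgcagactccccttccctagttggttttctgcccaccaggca
Retn: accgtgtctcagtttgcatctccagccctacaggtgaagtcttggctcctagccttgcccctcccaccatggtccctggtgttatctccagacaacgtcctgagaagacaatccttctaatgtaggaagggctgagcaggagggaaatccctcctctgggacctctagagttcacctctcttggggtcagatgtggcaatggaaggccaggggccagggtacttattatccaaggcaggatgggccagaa
Rbp4, upstream start: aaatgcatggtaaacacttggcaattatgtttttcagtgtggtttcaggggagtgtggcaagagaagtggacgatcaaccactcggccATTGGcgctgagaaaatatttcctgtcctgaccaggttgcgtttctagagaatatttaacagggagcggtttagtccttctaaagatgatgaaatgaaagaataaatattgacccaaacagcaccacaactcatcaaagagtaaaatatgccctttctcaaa
Rbp4, downstream start: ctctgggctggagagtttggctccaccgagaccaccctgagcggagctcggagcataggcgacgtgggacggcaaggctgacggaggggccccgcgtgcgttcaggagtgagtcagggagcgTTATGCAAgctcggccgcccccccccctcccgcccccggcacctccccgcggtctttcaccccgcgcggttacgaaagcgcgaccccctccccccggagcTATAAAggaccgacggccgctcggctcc
Adipoq: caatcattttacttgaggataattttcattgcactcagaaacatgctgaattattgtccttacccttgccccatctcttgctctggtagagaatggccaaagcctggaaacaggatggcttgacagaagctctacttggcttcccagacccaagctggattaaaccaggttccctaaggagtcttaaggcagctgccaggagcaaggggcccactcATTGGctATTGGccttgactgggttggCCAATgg
Lep: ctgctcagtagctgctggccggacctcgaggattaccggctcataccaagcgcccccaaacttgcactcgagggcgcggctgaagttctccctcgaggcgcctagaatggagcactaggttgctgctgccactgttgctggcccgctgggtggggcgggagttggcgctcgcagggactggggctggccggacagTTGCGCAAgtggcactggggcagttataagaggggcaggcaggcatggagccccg
The motifs searched on both strands were TATAAA, the TATA box, CCAAT, the CCAAT box, AGGTCA, a nuclear receptor half-site, and TTGCNNAA, a form of the site of C/EBP factors, none of which overlapped another motif in these windows. They occurred in 12.4%, 33.8%, 14.03% and 9.57% of 32817 promoter windows of that length. Adipoq had 3 CCAAT matches within 34 bases of its start, of which 2 lay on the opposite strand. RefSeq gave 2 starts for Rbp4, and the window of the downstream start lies inside the gene span given above. That of the upstream start lies outside this span. The bases after the upstream start were found in no GENCODE M21 transcript of Rbp4, while those after every other start shown were found in a transcript of their gene. The window of the upstream start had a CCAAT match on the opposite strand from 162 to 158 bases before that start and no TATAAA or C/EBP-type match. That of the downstream start had TATAAA from 28 to 23 bases before its start and a C/EBP-type match on the opposite strand from 128 to 121 bases. Lep had a C/EBP-type match from 55 to 48 bases before its start, which reads the same on both strands. Cfd and Retn, the genes with the largest falls, had none of these letters in their windows. These matches describe sequence and say nothing of binding.

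The order of the levels was compared per kilobase of the longest annotated transcript, since CPM favours long transcripts. In LFD adipocytes Cfd led at 7071 ± 4437 CPM per kilobase (SD, n = 3), rank 8 among 37607 genes, followed by Adipoq (2608 ± 688), Retn (1782 ± 283), Rbp4 (692 ± 41.9), Lep (448 ± 117), Rarres2 (183 ± 29.9), Nampt (20.3 ± 0.57) and Apln (14.03 ± 3.68). The ranges of Cfd and Adipoq overlapped, and those of all other neighbours did not. In HFD adipocytes the order became Adipoq (813 ± 299), Lep (521 ± 213), Cfd (331 ± 133), Retn (204 ± 81.8), Rbp4 (123 ± 52.1) and Rarres2 (103 ± 24.7), with every one of these neighbours overlapping the next, above Nampt (23.0 ± 0.74) and Apln (5.76 ± 0.49). In SW adipocytes Cfd was again first (2547 ± 541), ahead of Adipoq (1608 ± 279), Retn (748 ± 89.5) and Lep (384 ± 112) without overlap, and Lep, Rbp4 (264 ± 33.3) and Rarres2 (204 ± 27.7) overlapped in turn. The order depended on the length used. With median transcript lengths in place of the longest, the order by mean in LFD adipocytes was the same, with Rbp4 at 1058 and Lep at 795 CPM per kilobase. In HFD adipocytes Rarres2 then stood at 354, below Adipoq and Lep and above Cfd (340), Retn (231) and Rbp4 (189), and in SW adipocytes it stood at 703, above Lep (680) and Rbp4 (403.4).

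In stromal vascular cells the adipokines were scarce, apart from Rarres2 and, in the LFD library, Cfd. The 8 genes together took 0.0274 to 0.068% of the counts of an SVC library. In the HFD group adipocytes exceeded SVC for 7 of the 8 genes and for none was it lower (12.9% of all genes were higher in adipocytes and 16.2% lower, 29.1% in all). The call of Rbp4 among these, 2.42, was lost without HFD adipocyte library 2 (2.01, adjusted p = 0.0558). In the SW group it exceeded SVC for the same 7 (32.8% of all genes were higher and 35.6% lower, 68.4% in all). Libraries of the fractions did not overlap for these 7 genes in HFD (51.5% of all genes) or SW (70.8%). The difference was largest for Lep, at 5.84 ± 0.48 in HFD and 5.97 ± 0.41 in SW on the log2 scale (57.3-fold and 62.7-fold; adjusted p = 8.54e-06 and 1.68e-07). Adipoq (5.24 and 4.90), Retn (5.20 and 5.39) and Cfd (4.68 and 5.27) were next, while Apln differed by 1.43 in HFD and 0.90 in SW. The 10 adipocyte markers were higher in adipocytes by a median of 3.29 in HFD and 3.71 in SW, with all 10 past the threshold in each.

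**Figure D3:**
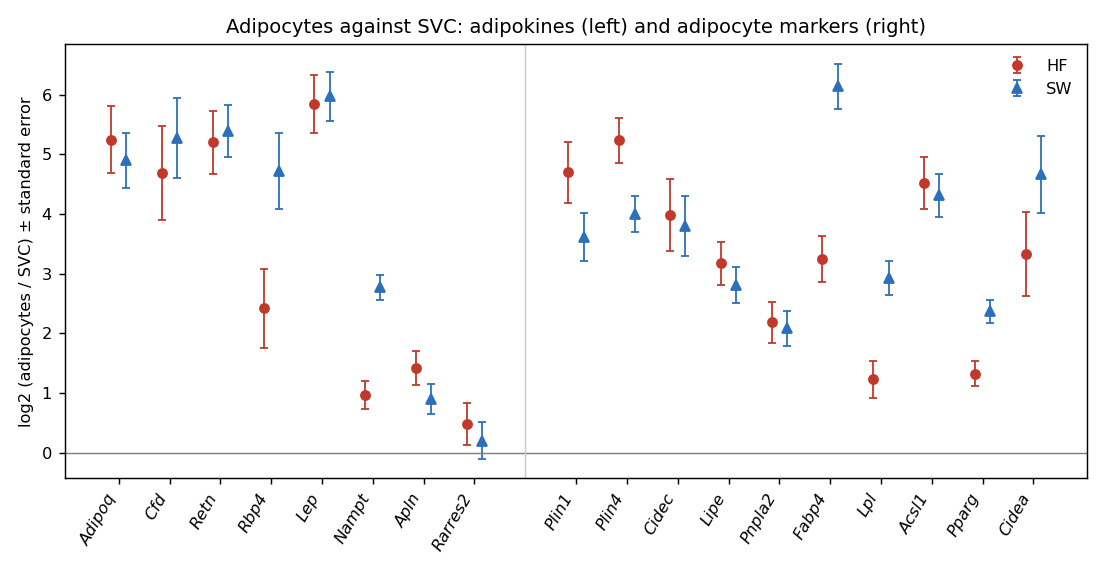
Log2 ratio of adipocytes to SVC ± SE in obese (HF; 3 adipocyte and 2 SVC libraries) and formerly obese (SW; 3 and 3 libraries) mice for the 8 adipokines and the 10 adipocyte markers. Lep, Retn, Adipoq and Cfd lie at about 5 or 6, Rarres2 lies near 0, and Rbp4 and Nampt lie higher in SW than in HF.

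Rarres2 was the gene with no difference past the threshold between fractions. Its levels in SVC were 261.9 CPM in the LFD library, 98.6 and 193.7 in HFD libraries 1 and 2, and 312.7, 228.0 and 458.7 in SW libraries 1, 2 and 3. On the scale common to both fractions, where TMM factors were set over all libraries, they were 104.7 and 229.2 CPM in HFD SVC against 199.1 to 300.2 in HFD adipocytes, and 278.8 to 547.1 in SW SVC against 410.99 to 527.7 in SW adipocytes, so that the fractions overlapped in both groups. In HFD the overlap rested on SVC library 2, the library with Alb at 1161 CPM, and the part of such transcripts in its Rarres2 value was not tested. The difference between fractions was 0.48 ± 0.35 in HFD (adjusted p = 0.309) and 0.21 ± 0.31 in SW (adjusted p = 0.56). Over the alternatives run, the difference in HFD lay between 0.0263 and 1.16. Per 1000 counts of the adipocyte markers, SVC held 19.8 to 346 counts of Rarres2, against 10.1 to 18.3 in adipocytes, and the ranges did not overlap. These markers summed to 1067 to 4977 CPM in SVC and 17969 to 44637 in adipocytes. A gene with like CPM in both fractions is therefore higher in SVC on this scale. Nampt (6.39 to 11.93 in SVC, 2.01 to 5.62 in adipocytes) and Apln (1.43 to 13.4, 0.361 to 1.34) did not overlap either, although both were higher in adipocytes by CPM. Its chemerin receptor Cmklr1 had 186 CPM in the LFD SVC library and means of 75.5 ± 14.5 (SD, n = 2) in HFD and 169 ± 12.3 (SD, n = 3) in SW SVC.

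Between SW and HFD SVC, Nampt fell and no other adipokine passed the threshold, where 11.7% of all genes fell and 5.71% rose (17.5% passed). In SVC from LFD mice Nampt stood at 11.7 CPM, from HFD mice at 59.4 and 27.9, and from SW mice at 9.07, 11.4 and 12.1, so that both HFD values lay above all others. From HFD to SW it fell 4.01-fold (95% interval of the log2 fold change -2.72 to -1.29; n = 2 and 3; adjusted p = 0.0362), and its call was lost without HFD library 1 or any SW library (adjusted p from 0.0574 to 0.155). Without HFD library 1 the log2 fold change was -1.28 in place of -2.005. The sum of the adipocyte markers in SVC moved with Nampt, at 4977 and 2523 CPM in HFD libraries 1 and 2, 1325 to 1439 in SW and 1067 in LFD. Single markers did not share that direction. Of 9 tested between SW and HFD, 1 was higher, 2 were lower and 6 did not pass, with a median log2 fold change of 0.55. Per 1000 counts of these markers Nampt had 11.93 and 11.04 counts in HFD, 6.39, 7.96 and 9.10 in SW and 10.97 in LFD SVC, so that HFD and SW still did not overlap while LFD lay close to the HFD values. The part of adipocytes in the change of Nampt was not tested. The change of Nampt from HFD to SW differed between fractions, by 1.80 ± 0.30 on the log2 scale (adipocytes minus SVC; adjusted p = 0.00188), where 27.1% of all genes passed, 15.7% higher and 11.4% lower. This difference was not tested on the scale of the adipocyte markers, on which Nampt was also lower in SW than in HFD adipocytes (-0.58). Cfd (2.30 ± 0.72; adjusted p = 0.0662), Retn (1.61 ± 0.53; 0.0727), Rarres2 (1.19 ± 0.43; 0.0886) and Adipoq (1.26 ± 0.51; 0.112) had higher means in SW than in HFD SVC. Without HFD library 2 these 4 rose and 5 of the 8 genes passed in all, with the remaining HFD library assumed to vary like the others. Groups did not overlap for 5 of the 8 genes (58.6% of all genes).

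Rbp4 in SVC rested on a single library. It was measured at 37.5 CPM in HFD library 2, against 4.12 in HFD library 1, 17.99 in the LFD library and 5.99 to 11.4 in the SW libraries. In that library Ttr, whose protein carries Rbp4 in blood, stood at 126 CPM and Apoa1 at 326, while in the other SVC libraries they reached at most 3.14 and 2.97. The part of these transcripts in the Rbp4 value was not tested. The difference between fractions in the change of Rbp4 from HFD to SW was 2.31 ± 0.82 (adjusted p = 0.0531), and without HFD library 2 of SVC it was -0.05 (adjusted p = 0.972). It passed without HFD library 1 of SVC (3.19, adjusted p = 0.00192), without HFD adipocyte library 2 (0.0410), with DESeq2 (0.0223), with upper-quartile factors (0.0470) and with at least 10 counts in every library (0.0317). Without HFD library 2 of SVC the difference of Rbp4 between fractions in HFD mice was 4.89 in place of 2.42 on the log2 scale, and both passed (adjusted p = 0.000117 and 0.0165).

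The only LFD library of SVC has no replicate check, and no test was made. Its counts gave Cfd 298 CPM (exact 95% binomial interval 284 to 312, counting error only), against 3.88 and 14.8 in HFD and 25.9 to 76.3 in SW libraries. Retn there was 34.9 CPM (30.3 to 40.1), against 3.25 and 6.83 in HFD and 8.14 to 19.8 in SW libraries. Both were highest in the LFD library, in which the adipocyte markers summed to 1067 CPM, below the 2523 and 4977 of the HFD and the 1325 to 1439 of the SW libraries. The sums of mesothelial and of fibroblast and progenitor markers were also highest there. Both genes also kept the diet order they had in adipocytes, with lean highest and obese lowest. Adipocyte means of Cfd were 6519 (LFD), 2349 (SW) and 305 CPM (HFD), and those of Retn 2030, 852 and 232. Adipoq did not keep its adipocyte order: the LFD library of SVC had 35.1 CPM, within the SW range of 30.1 to 68.5. The part of adipocytes, mesothelial cells or fibroblasts and progenitors in the Cfd and Retn values of the LFD library was not tested. Lep, at 12.4 CPM (9.68 to 15.6), was lowest in that library, against 19.3 and 28.1 in HFD and 13.4 to 16.6 in SW libraries. The interval reached into the SW values.

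Among the receptors of the adipokines, calls in both directions were found, as among all genes, of which 26.5% rose and 25.0% fell between LFD and HFD. The counts of the lists that follow stand beside the same shares. In SW against HFD the shares over all genes were 15.6% higher and 15.9% lower, and in SW against LFD 10.9% and 6.18%. Of 13 receptor genes listed, 11 were tested in adipocytes, and between LFD and HFD 3 rose, 4 fell and 4 did not pass, with a median of -0.29. Ccrl2, which binds chemerin (6.15 ± 1.23 CPM in LFD, 19.0 ± 8.46 in HFD), Cap1, described as a resistin receptor (138 ± 11.8 and 423 ± 37.5), and Tlr4 (14.5 ± 1.05 and 43.0 ± 6.31) rose, by 1.63, 1.62 and 1.57 on the log2 scale. Lepr, the leptin receptor (8.80 ± 1.46 and 3.69 ± 2.16 CPM), Gpr1, another chemerin receptor, and Cdh13, which binds adiponectin, fell by 1.28, 1.04 and 0.66. The adiponectin receptors Adipor1 and Adipor2 differed by -0.05 (adjusted p = 0.704) and -0.29 (adjusted p = 0.297). After the switch Cap1 and Tlr4 fell and no receptor rose, and in SW against LFD 3 were higher and 4 lower. The macrophage markers given above moved with Tlr4, Cap1 and Ccrl2, and their part in these changes was not tested.

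**Figure D4:**
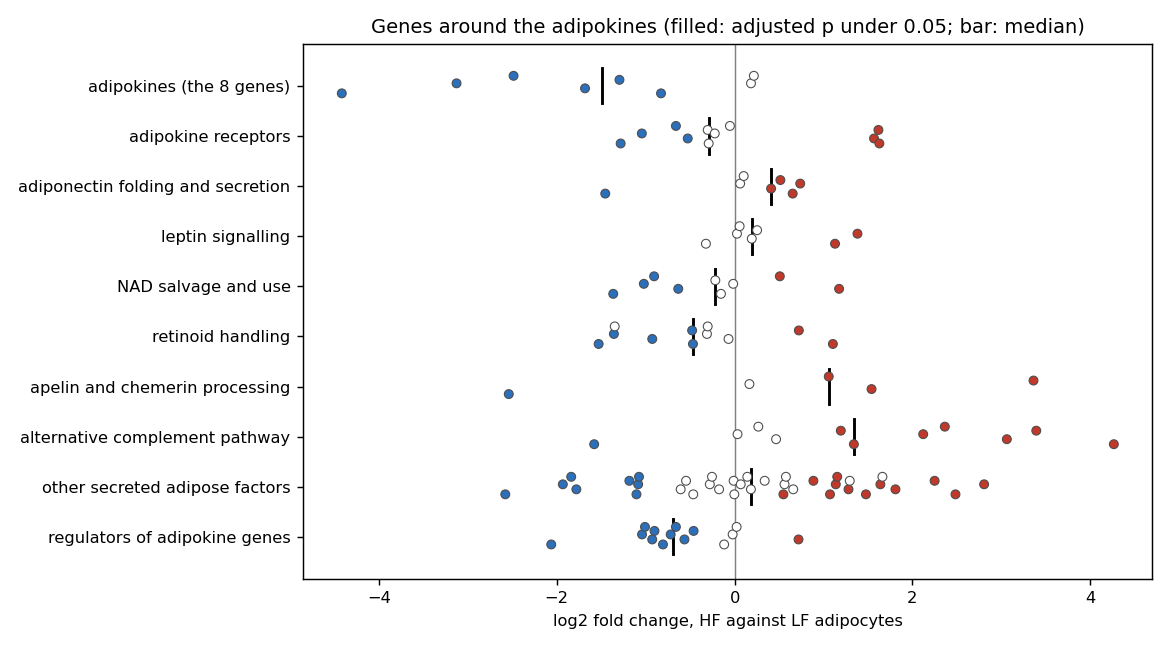
Log2 fold changes between HF and LF adipocytes of the 8 adipokines and of the listed genes around them, 1 point per gene tested, red (higher) or blue (lower) where the adjusted p was under 0.05 and white otherwise, with a bar at each list's median. Regulators of adipokine genes lie mostly below 0 with a median of -0.69, and complement genes mostly above 0 with a median of 1.34.

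Genes that act with single adipokines were counted in the same way. Among 14 regulators of adipokine genes, 10 fell from LFD to HFD and 1 rose, with a median of -0.69. The largest falls were those of Klf15 (42.5 ± 5.99 CPM in LFD, 10.2 ± 2.43 in HFD, 26.4 ± 0.99 in SW; -2.06), Foxo1 (-1.04) and Epas1 (-1.01), and Hif1a rose by 0.72. From HFD to SW 3 regulators rose, Klf15 by 1.37, Cebpd by 1.36 and Cebpb by 1.19, and Hif1a fell by 0.79. Among 7 genes of adiponectin folding and secretion 4 rose with HFD, led by the chaperone Hspa5 (0.74), and Gstk1, which assists adiponectin assembly, fell by 1.45 and rose by 1.13 after the switch, the only call of that list in SW against HFD.

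Cfd fell with HFD while most other complement genes rose. Of 12 listed genes of the alternative pathway 11 were tested, of which 7 rose from LFD to HFD and 1, Cd46, fell, with a median of 1.34. The receptors C3ar1, C5ar1 and C5ar2 rose by 4.27, 3.39 and 3.06 on the log2 scale. C3, cleaved by the convertase that adipsin activates, rose by 1.20 from 487 ± 92.4 to 1114 ± 104 CPM, and Cfb, the substrate of adipsin, differed by 0.47 (adjusted p = 0.121). In SW against LFD 6 of the 11 were higher and none was lower. Complement receptors are also expressed by macrophages, whose markers rose alongside, and their part in these rises was not tested.

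Around retinol binding, 5 of 11 tested genes of retinoid handling fell with HFD and 2 rose: Cyp26b1, Rbp7 and Aldh1a1 fell by 1.53, 1.36 and 0.93, and Aldh1a2 and Aldh1a3 rose by 1.11 and 0.72. Stra6, the receptor of Rbp4, had too few counts for a test in adipocytes. Of 9 genes of NAD salvage and use, which act next to Nampt, 4 fell, led by Nmnat2 (-1.36) and Cd38 (-1.02), and 2 rose, with Parp1 at 1.18. In leptin signalling 2 of 7 rose, Socs3 by 1.38 and Ptpn1 by 1.13, both of which restrain the leptin receptor. Among 5 tested genes of apelin and chemerin processing Ctsk, Ctsl and Mme rose by 3.36, 1.54 and 1.06.

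Other secreted factors of fat showed no common direction. Of 41 listed, 37 were tested, 12 rose and 8 fell between LFD and HFD, with a median of 0.18. The largest rises were those of Gdf15 (2.81), Metrnl (2.48) and Tnf (2.25), and falls included those of Agt (-2.58) and the resistin relative Retnla (-1.93). The macrophage markers given above rose in the same libraries, and their part in these rises was not tested. In SW against HFD 7 rose and 3 fell (15.6% and 15.9% of all genes), and in SW against LFD 5 were higher and 4 lower (10.9% and 6.18%). Gdf15 was among the higher in SW against LFD, by 3.60 ± 0.28, at 2.15 ± 1.05 CPM in LFD, 14.4 ± 3.67 in HFD and 24.9 ± 1.52 in SW adipocytes.

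The genes most like each adipokine were found by Pearson's r of log2 CPM over the 9 adipocyte libraries among 12440 genes, as a description over libraries that share the 3 diets. Adipoq was most like Ptp4a1 (r = 0.996), Retn like Ahsa2 (0.995) and Klf15 (0.993), Rbp4 like Il17re (0.995), Cfd like Skp1a (0.993) and Rarres2 like 1700112E06Rik (0.992). For Lep (Idi1, 0.971), Apln (Arhgap44, 0.967) and Nampt (Zfp263, 0.947) the closest genes were less close.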

How the data were processed

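RNA sequencing of adipocytes and SVC of epididymal fat was deposited as 2 gene tables. Reads were aligned by the authors to mouse transcripts (Bowtie2) and RSEM gave expected counts of each gene, which were deposited as whole numbers and not normalized. The submitters' processing notes name genome build mm9 and limma; versions are not given in the sources used here. The labels list 26 records of 18 libraries, and whether runs of a library were added is not stated. Records were single-end or paired-end, unevenly over the groups. All SW adipocyte records were paired-end, while LFD and HFD adipocytes also had single-end records. Some LFD and HFD libraries of SVC had single-end records only, while each SW library of SVC had both. The part of this layout in the results was not tested. Columns name a fraction, a diet and a number found in no label, so each served as a replicate of its group; 15 were used, and 3 columns of values whose names match no group were not.

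From the counts, as deposited, each fraction was fitted with edgeR (version 4.0.16, R 4.3.3; TMM factors, low counts removed by filterByExpr at a minimum of 10, robust quasi-likelihood test, no covariates, Benjamini-Hochberg adjusted p under 0.05 over all genes tested), and both fractions together for differences between them. SE is the log2 fold change divided by the square root of F, and 95% intervals use it with normal quantiles. With so few libraries these intervals are narrower than ones from the distribution of the test would be, and they cover less than 95%. The script was tested on simulated data. DESeq2 1.42.0, limma-voom (limma 3.58.1), other scaling factors and filters, fits without the other diet groups, and leave-one-out fits were alternatives. Depth was 5781902 to 23725647 counts; 3 counts, the limit a count of 0 allows, are 0.126 to 0.519 CPM. No pair of libraries agreed within counting noise. Positions and transcript lengths are from GENCODE M21 (GRCm38), promoters from RefSeq (GRCm38.p6; 7 of 8 genes matched). Tables and plots were made in Python 3.11.15 (matplotlib 3.10.9, numpy 2.4.6, pandas 2.3.3).

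Libraries are numbered within a group by the number in the column name. The members, gene lists, marker lists and motifs were chosen with earlier results of these data known. All 8 adipokines are named whatever their values; of a list at most the 3 largest rises and falls are named, and partners of an adipokine; for likeness, genes among the 3 with the highest r. Some genes that this rule would name are not reported here.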

Additional observations from a re-analysis of the deposited data

Results flagged for a closer look

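The change of Nampt from HFD to SW differed between the cell fractions in a test of the difference itself: it was higher in adipocytes than in SVC by 1.80 ± 0.30 on the log2 scale (edgeR's quasi-likelihood test, adjusted p = 0.00188; 3 and 3 adipocyte, 2 and 3 SVC libraries). Over all alternatives run, this difference lay between 1.26 and 2.29, with an adjusted p of at most 0.00741. In fits of each fraction alone, the change was -0.07 in adipocytes and -2.005 in SVC. The call in SVC was lost when any SW library was left out. Without HFD library 1 the change in SVC was -1.28. Both HFD libraries of SVC stood apart in content, as given above. Scaling to the adipocyte markers was not among the alternatives for the difference between fractions. Per 1000 counts of those markers Nampt had 5.62, 4.19 and 4.73 counts in HFD and 2.96, 3.60 and 3.13 in SW adipocytes. In SVC it had 11.93 and 11.04 in HFD and 6.39, 7.96 and 9.10 in SW libraries. It was thus lower in SW than in HFD in both fractions, and the difference between them was not tested on that scale. The macrophage markers in SVC summed to 10043 and 18372 CPM in HFD and 13295 to 19479 CPM in SW libraries, overlapping ranges. The adipocyte markers there summed to 2523 and 4977 CPM in HFD and 1325 to 1439 CPM in SW libraries, without overlap. Tested singly, 1 of 9 was higher and 2 were lower in SW, with a median log2 fold change of 0.55, so the sum does not stand for each marker. The part of either in the result was not tested.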

How the results depend on the processing

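Of 872 values of single adipokines under all alternatives, 834 kept their direction, where called, and their side of the threshold, 25 newly passed it, 12 no longer passed it and 1 turned: Rarres2 between HFD and LFD, 0.0740 when scaled to the adipocyte markers. The counts of adipokines past the threshold became 5 (SW against LFD) and 5 (SW against HFD in SVC) with DESeq2, and 2 for the difference between fractions with DESeq2, upper-quartile factors or at least 10 counts in every library. In SVC, genes past the threshold numbered 2849, against 5166 with DESeq2 and 1719 with limma-voom. Leaving out 1 library gave the following ranges. SW against HFD in adipocytes had 1522 to 4290 genes and 3 to 5 adipokines, lowest without HFD library 3, and 2299 genes without HFD library 1. SVC had 0 to 6213 genes and 0 to 5 adipokines; no gene passed in edgeR's quasi-likelihood test without SW library 1 (4217 at an unadjusted p under 0.05) or 2 (5435), 503 without HFD library 1 and 593 without SW library 3, and the most passed without HFD library 2. Adipocytes against SVC in HFD had 2528 to 7044 genes (2528 without SVC library 2, 3255 without adipocyte library 2). The difference between fractions had 2936 to 6622 genes and 1 to 2 adipokines (2936 without HFD SVC library 1). The cause was not tested. Levels per kilobase in LFD adipocytes with median transcript lengths were 795 for Lep, 3681 for Adipoq, 1058 for Rbp4, 89.6 for Nampt and 627 for Rarres2, since other lengths divide the same counts. No paired analysis was possible because the columns carry numbers that are in no label and that differ between the fractions.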
